A study of Mus musculus with 9 samples.

Results

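The genes described are 6 members of the MS4A family that are not the classical B cell or mast cell genes: Ms4a4b, Ms4a4c, Ms4a6b, Ms4a6c, Ms4a6d and Ms4a7. They were taken by symbol from the array's annotation, and all 6 were measured, each by 1 transcript cluster, among 19938 genes with a symbol of their own. Blood monocytes were compared between adult Ccr2-/-, Ccl2-/- and wild type mice, all tumor-free, on the Balb/c background and 14 to 18 weeks old. The deletions are carried in every cell of the mouse, and the wild type mice carried neither of them. Each genotype had 3 Affymetrix Mouse Gene 1.0 ST arrays, 9 in all. Blood from 5 mice of a genotype was pooled before the cells were purified. Whether each array had a pool of its own is not stated. Cells bearing MHC class II, CCR3, Ly-6G, B220, CD8 or CD4 were removed, and the rest were selected for CD11b. The antibodies named for this purification do not include one to the NK cell marker NK1.1 or to CD11c, although the study's definition of its monocytes calls for both to be absent.

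MS4A proteins pass repeatedly through the membrane and have both ends in the cytoplasm. The founding members are CD20 of B cells, encoded by Ms4a1, and the beta chain of the high-affinity IgE receptor of mast cells and basophils, encoded by Ms4a2. Most of the other members lie with them in a tight cluster of duplicated genes, and many mark myeloid cells or lymphocytes. In the mouse, Ms4a4b is known from T helper 1 cells and NK cells, where its protein has been reported to associate with the co-stimulatory receptor GITR. Ms4a6b is known from T cells as well as myeloid cells. Ms4a4c, Ms4a6c, Ms4a6d and Ms4a7 are mainly known from monocytes and macrophages. The protein of Ms4a6d has been reported to work with the macrophage receptor VSIG4 in restraining the NLRP3 inflammasome.

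RefSeq places 21 Ms4a genes in a row on chromosome 19, and all 6 genes lie in a run of 8: Ms4a7, Ms4a4a, Ms4a4c, Ms4a4b, Ms4a6c, Ms4a6b, Ms4a4d and Ms4a6d. Promoter windows of 300 bases, 250 before and 50 after a transcript start, were listed by RefSeq for 5 of the 6 genes (GRCm38.p6, the C57BL/6J reference, whereas the mice were Balb/c). The windows of the neighbours Ms4a4b and Ms4a4c are shown because the levels of these genes differed in opposite directions in Ccr2-/- monocytes, and those of Ms4a6b and Ms4a6c because their profiles over the arrays, after subtracting the mean of each gene, were the closest of any pair of the 6 genes. All windows lie on the plus strand: Ms4a4b at chr19:11443308-11443607, Ms4a4c at chr19:11407411-11407710, Ms4a6b at chr19:11518309-11518608 and Ms4a6c at chr19:11469118-11469417. Capitals mark each match to GAGGAA, the core of the PU box bound by the myeloid factor PU.1, and to GGAAGT, an ETS family core, on either strand.
Ms4a4b: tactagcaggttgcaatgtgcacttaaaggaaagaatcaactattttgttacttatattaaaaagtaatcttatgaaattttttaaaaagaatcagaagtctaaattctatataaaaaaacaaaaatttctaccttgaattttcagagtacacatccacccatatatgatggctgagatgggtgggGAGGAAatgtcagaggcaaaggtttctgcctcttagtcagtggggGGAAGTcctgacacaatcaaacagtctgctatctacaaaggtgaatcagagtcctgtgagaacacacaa
Ms4a4c: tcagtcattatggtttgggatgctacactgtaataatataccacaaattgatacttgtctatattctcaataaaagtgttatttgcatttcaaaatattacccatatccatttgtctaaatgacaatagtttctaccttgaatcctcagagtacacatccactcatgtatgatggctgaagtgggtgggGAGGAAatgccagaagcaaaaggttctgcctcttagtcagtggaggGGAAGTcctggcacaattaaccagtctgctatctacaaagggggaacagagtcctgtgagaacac
Ms4a6b: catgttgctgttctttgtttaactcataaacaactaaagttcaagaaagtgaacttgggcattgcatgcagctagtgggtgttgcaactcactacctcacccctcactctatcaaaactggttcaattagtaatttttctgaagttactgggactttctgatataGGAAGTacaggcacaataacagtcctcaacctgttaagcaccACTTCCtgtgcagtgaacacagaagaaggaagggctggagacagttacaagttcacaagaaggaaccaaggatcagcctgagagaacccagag
Ms4a6c: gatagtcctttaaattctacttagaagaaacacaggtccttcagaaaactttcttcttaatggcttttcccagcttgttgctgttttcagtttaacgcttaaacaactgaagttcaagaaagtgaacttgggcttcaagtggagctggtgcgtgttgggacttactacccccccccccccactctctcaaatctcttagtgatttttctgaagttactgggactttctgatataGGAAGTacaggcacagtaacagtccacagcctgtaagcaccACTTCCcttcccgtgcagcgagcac

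The Ms4a4b and Ms4a4c windows were identical at 228 of 282 aligned bases (80.9%). Those of Ms4a6b and Ms4a6c were identical at 189 of 220 aligned bases (85.9%), with the windows displaced by 73 bases against each other. Windows of these 5 genes and of Ms4a4a, Ms4a4d and Ms4a8a were aligned, with no penalty for overhanging ends. The other 33 pairs were aligned over only 1 to 89 bases, of which 1 to 60 were identical. Their counts therefore do not measure likeness over whole windows. Windows of the remaining genes of the cluster were not aligned. GAGGAA began 64 bases before the start of Ms4a4b and 61 bases before that of Ms4a4c, and GGAAGT began 19 and 15 bases before those starts. Ms4a6b held GGAAGT 85 bases before its start and, on the opposite strand, 43 bases before it. Ms4a6c held GGAAGT 16 bases before its start and, on the opposite strand, 26 bases into the transcript. Among all 32851 mouse promoter windows of this length, 28.3% held GAGGAA and 23.8% held GGAAGT on either strand, so a match to either is common. The motif TATAAA was found in Ms4a4b alone of the 4 windows shown, 140 bases before the start, and 13.6% of all windows held it. The interferon-stimulated response element, AGGTGTGA (for T-box factors) and TGTGGTT (for RUNX factors) were searched on both strands as well and matched none of the 4 windows, against 3.44%, 1.28% and 5.27% of all windows. Of the motifs searched, only the TATA motif separated Ms4a4b from Ms4a4c. A match is a description of the letters and no evidence of binding.

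**Figure D1:**
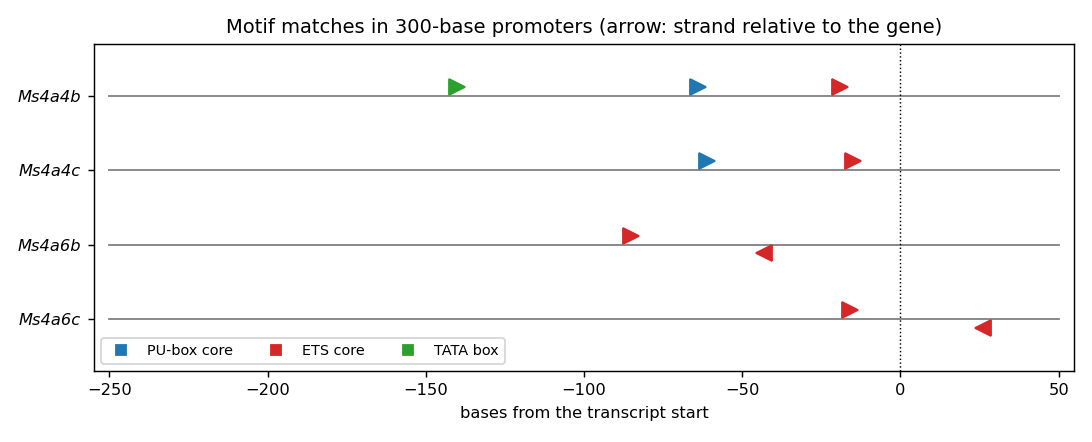
Matches to 3 motifs in the promoter windows of Ms4a4b, Ms4a4c, Ms4a6b and Ms4a6c; the x axis gives bases from the transcript start (dotted line), and an arrow pointing right or left marks a match on the strand of the gene or on the opposite strand. Ms4a4b and Ms4a4c share a PU-box core 64 and 61 bases before the start, and every window has an ETS core.

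The arrays had median intensities of 324.1 to 355.1, except Ccl2-/- replicate 1, which stood apart at 430.8. Values are given below as log2 of the deposited intensity, with replicates 1, 2 and 3 in turn, and differences as log2 fold changes. Tests are limma's moderated test across all genes, with a call at a Benjamini-Hochberg adjusted p under 0.05. Labels call the 3 arrays of a genotype biological replicates, and the pooling of mice is given in the study's methods. Each p therefore measures the spread between arrays of pooled material, not between mice. Ccr2 itself read 9.41, 9.44 and 9.47 in Ccr2-/- monocytes, 12.61, 12.73 and 12.93 in Ccl2-/- monocytes, and 13.26, 13.02 and 12.99 in wild type monocytes. Its log2 fold change between Ccr2-/- and wild type was -3.65 (limma adjusted p = 4.33e-06). Ccl2 averaged 8.81 ± 0.15 in Ccr2-/-, 9.45 ± 0.36 in Ccl2-/- and 8.98 ± 0.21 in wild type monocytes (SD, n = 3), and every Ccl2-/- array was above every wild type array (log2 fold change 0.47, limma adjusted p = 0.326). The position of its probes relative to the deletion is not given, so this value does not check the Ccl2-/- label. Of the defining monocyte genes, Csf1r, Lyz2 and Itgam read 12.69 or more on every array. Cd14, on the same pan-monocyte list, read only 8.24, 8.26 and 8.36 in Ccr2-/- monocytes. That list averaged 12.09 in Ccr2-/-, 12.49 in Ccl2-/- and 12.60 in wild type monocytes. An NK cell list averaged 12.60, 12.23 and 11.81 in the same order, above the pan-monocyte list in Ccr2-/- alone. The bright genes therefore do not show how pure the cells were, which was not tested. Marker lists of other cell types are given with the results.

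In Ccr2-/- monocytes, all 6 genes differed from wild type: Ms4a4b was higher, and Ms4a4c, Ms4a6b, Ms4a6c, Ms4a6d and Ms4a7 were lower. Among all genes tested, 13.3% passed the same test (4.91% higher and 8.38% lower). For every one of the 6, the Ccr2-/- arrays did not overlap the wild type arrays, as was true of 33.9% of all genes (15.7% above and 18.1% below). The median log2 fold change of the 6 was -0.47, beside 0.01 over all genes tested. Under the study's size limits, a ratio over 1.2 and a difference over 100 on the linear scale, all but Ms4a6c would be counted, beside 15.8% of all genes.

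Ms4a4b, the member known from T and NK cells, had log2 intensities of 12.76, 12.60 and 12.51 in Ccr2-/- monocytes, 12.41, 12.40 and 12.20 in Ccl2-/- monocytes, and 11.99, 12.11 and 12.06 in wild type monocytes. All 3 genotypes were separate from each other, with Ccr2-/- highest, Ccl2-/- between and wild type lowest. In Ccr2-/- monocytes Ms4a4b reached 1.48 times its wild type level, a log2 fold change of 0.57 with a standard error of 0.09 and a 95% interval of 0.36 to 0.77 (limma adjusted p = 0.00376). It was the only one of the 6 that was higher than wild type.

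Ms4a4c, a monocyte gene next to Ms4a4b on the chromosome, had the opposite pattern. Its values were 12.36, 12.33 and 12.31 in Ccr2-/- monocytes, 12.88, 12.68 and 12.95 in Ccl2-/- monocytes, and 13.01, 12.93 and 12.90 in wild type monocytes. The Ccr2-/- arrays lay close together and below all others, while the Ccl2-/- and wild type arrays overlapped. Its ratio of Ccr2-/- to wild type was 0.653 (log2 fold change -0.62, standard error 0.08, 95% interval -0.80 to -0.43, limma adjusted p = 0.00155).

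Ms4a6d, whose protein is reported to restrain NLRP3, had linear intensities of 5143, 5254 and 6545 in Ccr2-/- monocytes, 8238, 7470 and 8190 in Ccl2-/- monocytes, and 9442, 8648 and 8218 in wild type monocytes. In log2 units it averaged 12.45 ± 0.19 in Ccr2-/-, 12.96 ± 0.08 in Ccl2-/- and 13.10 ± 0.10 in wild type monocytes (SD, n = 3). Ccr2-/- replicate 3 stood above its 2 fellows but below every array of the other genotypes, and the Ccl2-/- and wild type arrays overlapped. The ratio of Ccr2-/- to wild type was 0.641, with a log2 fold change of -0.64 and a standard error of 0.11 (limma adjusted p = 0.00486).

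Ms4a7, best known from tissue macrophages, was dim. It had log2 intensities of 7.27, 7.16 and 7.66 in Ccr2-/- monocytes, 7.90, 7.94 and 8.45 in Ccl2-/- monocytes, and 8.60, 8.22 and 8.28 in wild type monocytes. Ccr2-/- replicate 3 was again the highest of its genotype, and Ccl2-/- replicate 3 reached into the wild type range. The ratio of Ccr2-/- to wild type was 0.498, the lowest of the 6 genes, and its log2 interval was the widest, -1.44 to -0.57 at 95% (limma adjusted p = 0.00867). On the linear scale it averaged 166 in Ccr2-/-, 278 in Ccl2-/- and 332 in wild type monocytes. With no detection calls, how much of these values was background is not known.

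Ms4a6b and Ms4a6c had the smallest differences. Ms4a6b, known from T cells and myeloid cells, read 12.41, 12.25 and 12.21 in Ccr2-/- monocytes, 12.46, 12.42 and 12.52 in Ccl2-/- monocytes, and 12.61, 12.63 and 12.62 in wild type monocytes. The genotypes did not overlap, and the wild type arrays nearly coincided. The ratio of Ccr2-/- to wild type was 0.797 (log2 fold change -0.33, standard error 0.07, limma adjusted p = 0.0162). Its call was lost without wild type replicate 1, 2 or 3 (limma adjusted p = 0.0582, 0.0636 and 0.0571), without Ccr2-/- replicate 2 or 3 (0.0763 and 0.0571) and after median centring of the arrays (0.127).

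Ms4a6c, a monocyte gene and the next neighbour of Ms4a4b on its other side, had values of 13.22, 13.27 and 13.26 in Ccr2-/- monocytes, 13.44, 13.33 and 13.46 in Ccl2-/- monocytes, and 13.53, 13.46 and 13.47 in wild type monocytes. Its 3 genotypes were again in separate ranges, although Ccl2-/- and wild type came within hundredths of each other. The ratio of Ccr2-/- to wild type was 0.848 (log2 fold change -0.24, standard error 0.06, limma adjusted p = 0.0379). That call was lost without any 1 of the wild type arrays (limma adjusted p of 0.0989 to 0.143) or any 1 of the Ccr2-/- arrays (0.0856 to 0.132), with quantile normalization (0.0586), with each array centred (0.239) and with the replicate number as a block (0.0955). Ms4a4b, Ms4a4c, Ms4a6d and Ms4a7 were called under each of the 17 alternatives tried.

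**Figure D2:**
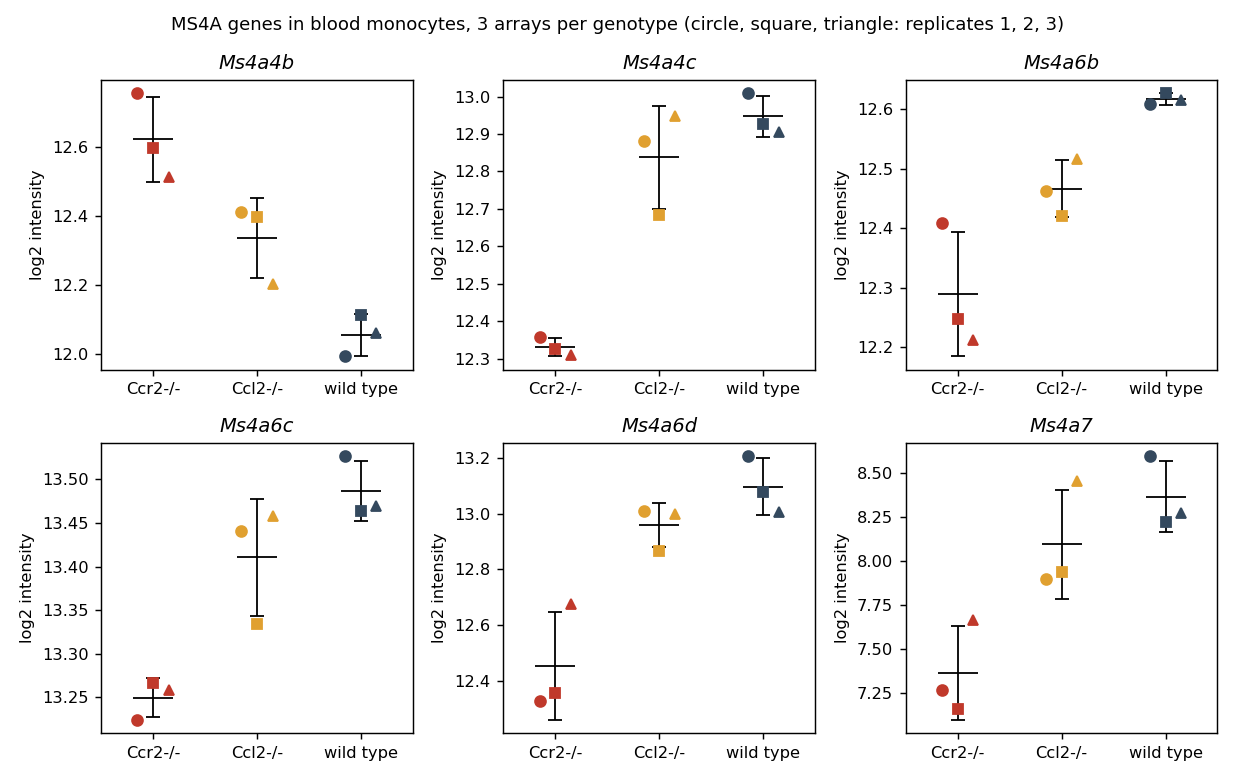
Log2 intensity (y axis, a separate range in each panel that does not start at 0) of the 6 genes on each of the 9 arrays, for Ccr2-/-, Ccl2-/- and wild type monocytes; points are arrays, with the mean as a bar and the SD of 3 arrays as whiskers. Ms4a4b alone descends from Ccr2-/- to wild type, and in every panel the Ccr2-/- points lie apart from the wild type points.

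Other genes on the same arrays moved with these differences. All 12 genes of an NK cell list were called higher in Ccr2-/- than in wild type monocytes, beside 4.91% of all genes. Among them were the receptor Ncr1 and the cytotoxic genes Prf1 and Gzmb, and the median log2 fold change was 0.77 over the 12. The mean log2 level of the NK list ranged over 12.57 to 12.64 in Ccr2-/-, 12.07 to 12.32 in Ccl2-/- and 11.74 to 11.85 in wild type arrays, the same order as for Ms4a4b. None of the 11 measured genes of a T cell list was called, and 1, Lat, had an unadjusted p under 0.05. The T cell list differed widely among Ccr2-/- arrays, at 10.27, 9.75 and 8.81 for replicates 1, 2 and 3, against 8.85 to 9.55 in Ccl2-/- and 9.46 to 9.52 in wild type arrays. Replicate 1 was the highest Ccr2-/- array and replicate 3 the lowest for Ms4a4b, Ms4a4c and Ms4a6b, and likewise for the T cell, NK cell and basophil and mast cell lists. Without Ccr2-/- replicate 1, where that list was highest, Ms4a4b had a log2 fold change of 0.50 (limma adjusted p = 0.0174), and without replicate 3, where it was lowest, 0.62 (limma adjusted p = 0.00769). The part of NK or T cells in the level of Ms4a4b was not tested.

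Of the monocyte lists, the Ly-6Chi and pan-monocyte lists moved the other way, with the 5 genes that were lower, and the Ly-6Clo list did not. Of all genes, 8.38% were called lower and 4.91% higher in Ccr2-/- monocytes than in wild type. All 7 measured genes of the Ly-6Chi monocyte list were lower in Ccr2-/- monocytes, with a median log2 fold change of -1.42, and this list averaged 10.20 to 10.44 in Ccr2-/-, 10.94 to 11.27 in Ccl2-/- and 11.51 to 12.20 in wild type arrays. Of 11 genes of a pan-monocyte list, 9 were lower and none higher, with a median of -0.37. Of 14 genes of a Ly-6Clo monocyte list, 2 were higher (Spn and Cd9) and none lower, with a median of 0.00. Of 5 genes of a plasmacytoid dendritic cell list, 3 were lower (Tcf4, Bst2 and Irf7) and none higher, with a median of -0.32. Siglech and Ccr9 of the same list overlapped wild type, with log2 fold changes of 0.12 (limma adjusted p = 0.863) and -0.11 (0.779). That list averaged 9.77 to 9.89 in Ccr2-/-, 10.02 to 10.22 in Ccl2-/- and 10.02 to 10.18 in wild type arrays, and its part in the result was not tested. Ccr2-/- replicate 3, the highest of its genotype for Ms4a6d and Ms4a7, was also the highest of its genotype for the Ly-6Chi and pan-monocyte lists, but it was the lowest for Ms4a4c and Ms4a6b and lay between the others for Ms4a6c. In RNA from cells of pooled blood, fewer cells of a type and less RNA per cell cannot be told apart.

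**Figure D3:**
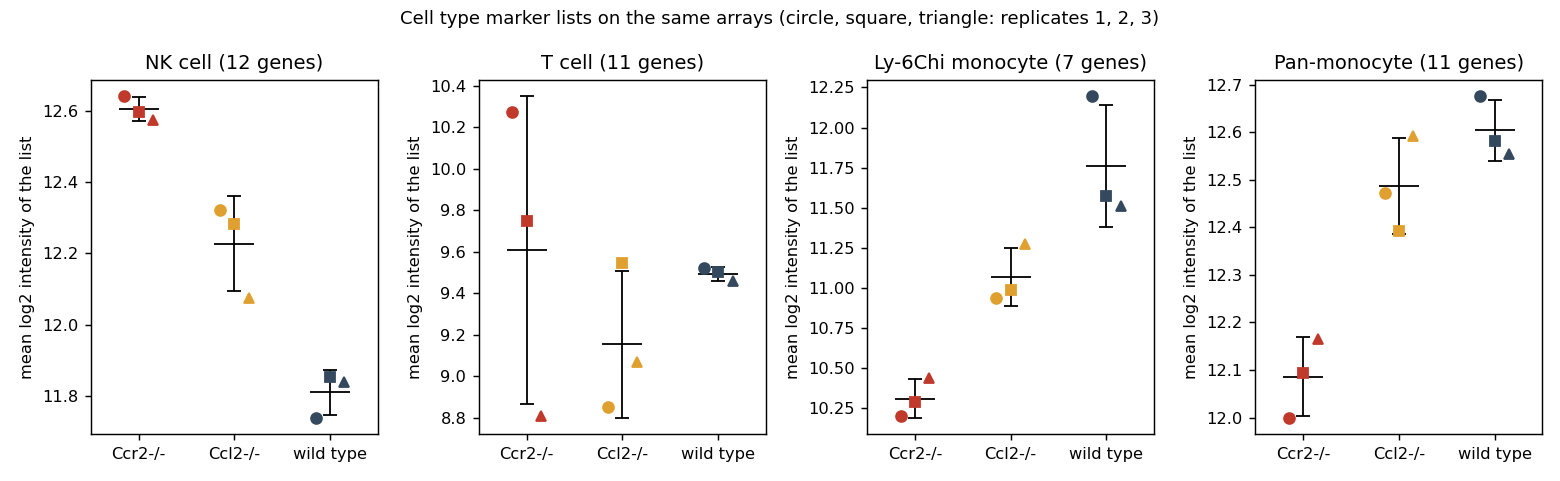
Mean log2 intensity (y axis, a separate range in each panel that does not start at 0) of 4 marker lists on each array, for Ccr2-/-, Ccl2-/- and wild type monocytes; points are arrays, with the mean as a bar and the SD of 3 arrays as whiskers. The NK cell list is highest in Ccr2-/- arrays and the Ly-6Chi and pan-monocyte lists are lowest there, while the T cell list ranges over 8.81 to 10.27 within Ccr2-/-.

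In Ccl2-/- monocytes, none of the 6 genes was called against wild type, where 0.160% of all genes were called. Only Ms4a4b had an unadjusted p under 0.05, as did 13.1% of all genes. The Ccl2-/- arrays of 3 of the 6 did not overlap wild type, above it for Ms4a4b and below it for Ms4a6b and Ms4a6c, and 18.7% of all genes were without overlap (9.43% above and 9.31% below). Ms4a4b had a log2 fold change of 0.28, with a 95% interval of 0.08 to 0.49 (limma adjusted p = 0.235). By the size limits it alone of the 6 would be counted, and it would be among the 7.84% of all genes counted as higher (11.6% in either direction).

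For the 5 other genes the Ccl2-/- log2 fold changes ran from -0.27 for Ms4a7, with a 95% interval of -0.70 to 0.16 (limma adjusted p = 0.520), to -0.08 for Ms4a6c, with an interval of -0.22 to 0.07 (limma adjusted p = 0.560). Between them were Ms4a6b at -0.15 (limma adjusted p = 0.409), Ms4a6d at -0.14 (0.545) and Ms4a4c at -0.11 (0.533). Intervals as wide as that of Ms4a7 do not show that its level was the same. Centring each array on its median moved all genes of this comparison down by 0.11, because Ccl2-/- replicate 1 was bright. Relative to that shift, Ms4a4b was at 0.17 and the other 5 were at -0.19 to -0.38, still with no call. Without Ccl2-/- replicate 1, too, none of the 6 was called. The NK cell list had a median log2 fold change of 0.43 in Ccl2-/- monocytes with none of its 12 genes called and 10 at an unadjusted p under 0.05. The Ly-6Chi monocyte list had a median of -0.67, with none of 7 called and all 7 at an unadjusted p under 0.05. The basophil and mast cell list had a median of -0.74, with none of 8 called and 6 at an unadjusted p under 0.05. Of its genes 5 were without overlap below wild type, beside 9.31% of all genes.

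Set directly against Ccl2-/- monocytes, Ccr2-/- monocytes had lower Ms4a4c and Ms4a6d. All 6 genes were without overlap, Ms4a4b above and the other 5 below, beside 23.6% of all genes (7.58% above and 16.0% below). By the test 2 of the 6 were called, both lower, beside 3.60% of all genes (0.732% higher and 2.87% lower). All 6 had an unadjusted p under 0.05, as did 18.6% of all genes, and 4 would count by the size limits (Ms4a4b, Ms4a4c, Ms4a6d and Ms4a7), beside 12.6%. This comparison and the one with wild type share the Ccr2-/- arrays. Ms4a4c was 0.704-fold of its Ccl2-/- level, a log2 fold change of -0.51 with a 95% interval of -0.69 to -0.32 (limma adjusted p = 0.0200). Ms4a6d was 0.705-fold, a log2 fold change of -0.50 with an interval of -0.75 to -0.26 (limma adjusted p = 0.0424). Ms4a4c lost its call without Ccl2-/- replicate 3 (limma adjusted p = 0.0567), without Ccr2-/- replicate 1, 2 or 3 (0.0868, 0.0900 and 0.0581), with arrays centred (0.140), in a fit of the 6 arrays alone (0.0999) and with the replicate block (0.0553). Ms4a6d lost its call without any 1 of the wild type arrays (limma adjusted p of 0.0654 to 0.0833) or Ccl2-/- arrays (0.0509 to 0.0975), without Ccr2-/- replicate 1 or 2 (0.181 and 0.157), with quantile normalization (0.0548), with arrays centred (0.183), in the fit of 6 arrays (0.141) and with the block (0.0906).

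The 4 genes that missed the threshold also differed in the same directions as against wild type. Ms4a7 had the largest log2 fold change of the 6 here, -0.73 with an interval of -1.17 to -0.30 (limma adjusted p = 0.0785), and it was called without Ccl2-/- replicate 1 (limma adjusted p = 0.0451). Ms4a4b had a log2 fold change of 0.28 (limma adjusted p = 0.131), Ms4a6b one of -0.18 (0.227) and Ms4a6c one of -0.16 (0.212). Relative to the centring shift, which was -0.11 here, Ms4a4b was at 0.40, Ms4a4c at -0.40, Ms4a6d at -0.39, Ms4a7 at -0.62, Ms4a6b at -0.07 and Ms4a6c at -0.05.

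**Figure D4:**
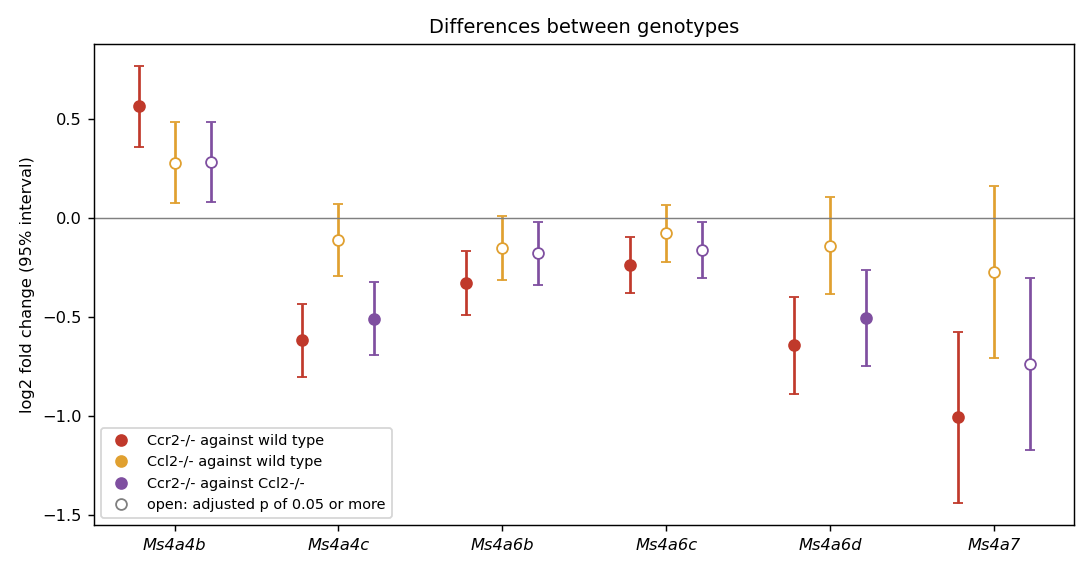
Log2 fold change (y axis) with its 95% interval for each of the 6 genes in 3 comparisons: Ccr2-/- against wild type, Ccl2-/- against wild type and Ccr2-/- against Ccl2-/-; filled points passed limma's test at an adjusted p under 0.05 and open points did not. All 6 are filled for Ccr2-/- against wild type, none for Ccl2-/- against wild type, and Ms4a4c and Ms4a6d for the direct comparison.

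A difference taken within each array does not change with the overall brightness of the array. The log2 value of Ms4a4b minus that of its neighbour Ms4a6c was -0.47, -0.67 and -0.74 in Ccr2-/- monocytes, -1.03, -0.94 and -1.25 in Ccl2-/- monocytes, and -1.53, -1.35 and -1.41 in wild type monocytes. The 3 genotypes did not overlap, and the balance was shifted most toward Ms4a4b in Ccr2-/- arrays. The mean was higher by 0.80 in Ccr2-/- than in wild type monocytes, by 0.36 in Ccl2-/- than in wild type, and by 0.45 in Ccr2-/- than in Ccl2-/-. Each of these 3 comparisons had an exact two-sided permutation p of 0.1 (also 0.1 after Benjamini-Hochberg adjustment over the 3), the smallest p that 3 arrays against 3 can give. In each comparison Ms4a4b lay above and Ms4a6c below without overlap, so this separation and its p follow from the values already given and add no separate evidence. The difference shows unequal change of the pair and not which of them changed.

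The profiles of the 6 genes over the 9 arrays were also compared, from the same values as above. After the mean of each gene was subtracted, the root mean square difference in log2 units was smallest between Ms4a6b and Ms4a6c, at 0.0756, and next between Ms4a4c and Ms4a6d, at 0.109. It was largest between Ms4a4b and Ms4a7, at 0.712. The measure did not set Ms4a4b apart from all the others, because Ms4a6c was nearer to Ms4a4b (0.347) than to Ms4a7 (0.381). Ms4a6b and Ms4a6c varied least about their own means (0.144 and 0.106), which by itself brings their profiles close together. For comparison, Ms4a4b varied by 0.246, Ms4a4c by 0.277, Ms4a6d by 0.296 and Ms4a7 by 0.476.

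Among 17889 genes with a mean intensity above 100, predicted genes and the 6 themselves left out, the profile nearest to that of Ms4a4b was Gab3, an adaptor of the Gab family, at 0.0227, and then Aak1, a kinase that acts in endocytosis, at 0.0353 and Zgpat at 0.0437. The nearest to Ms4a4c were Trex1, a cytosolic DNA exonuclease, at 0.0394, Tlr8, an endosomal toll-like receptor, at 0.0454 and Cstb, a cysteine protease inhibitor, at 0.0465. Plac8 (0.0450), Tppp3 (0.0453) and the IgG receptor gene Fcgr3 (0.0570) were nearest to Ms4a6d. Near profiles imply like differences: in Ccr2-/- monocytes against wild type, Gab3 had a log2 fold change of 0.58, Tlr8 one of -0.67 and Fcgr3 one of -0.65. For Ms4a7 the nearest were the scavenger receptor gene Msr1 (0.109), Myof (0.120) and Gsto1 (0.140), and no gene came within 0.10 of it. Ms4a6b had Fnip1 (0.0358), Zfp277 (0.0408) and Vps51 (0.0438), and Ms4a6c had Pdxdc1 (0.0246), the lysosomal enzyme gene Ctsa (0.0275) and Wipi2 (0.0282). With so little variation, 700 genes lay within 0.10 of Ms4a6b and 1730 of Ms4a6c, so these names single out little. The corresponding numbers were 223 for Ms4a4b, 131 for Ms4a4c and 70 for Ms4a6d.

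Of the other MS4A and CD20-like genes listed, 14 of 16 were measured. In Ccr2-/- monocytes 4 were lower than wild type and none higher, beside 8.38% of all genes lower and 4.91% higher. The 14 had a median log2 fold change of -0.11. Ms4a4a, which lies between Ms4a7 and Ms4a4c and is a macrophage gene in human, read 11.65, 11.78 and 12.02 in Ccr2-/- monocytes, 12.60, 12.42 and 12.54 in Ccl2-/- monocytes, and 12.74, 12.39 and 12.57 in wild type monocytes. The Ccr2-/- arrays were below all others and the other genotypes overlapped, as for Ms4a4c and Ms4a6d, and the log2 fold change against wild type was -0.75 (limma adjusted p = 0.00412). Ms4a8a, farther along the cluster, read 10.20, 10.21 and 10.43 in Ccr2-/- monocytes, 11.53, 11.35 and 11.51 in Ccl2-/- monocytes, and 12.08, 12.05 and 11.74 in wild type monocytes. Its 3 genotypes were separate, and its log2 fold change of -1.68 in Ccr2-/- monocytes exceeded in size that of each of the 6 genes (limma adjusted p = 0.000296). The adjacent pair Tmem176a and Tmem176b, CD20-like genes on another chromosome, had log2 fold changes of -1.48 (limma adjusted p = 0.00113) and -1.44 (limma adjusted p = 0.00101). These 4 calls held under each of the 17 alternatives.

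None of the 14 was called in Ccl2-/- monocytes against wild type, with a median log2 fold change of -0.05. An unadjusted p under 0.05 was reached by 3 of them, and by 13.1% of all genes. Against Ccl2-/- monocytes, the same 4 genes were lower in Ccr2-/- monocytes, beside 2.87% of all genes. The log2 fold changes were -0.70 for Ms4a4a (limma adjusted p = 0.0237), -1.18 for Ms4a8a (0.00502), -1.12 for Tmem176a (0.0189) and -1.13 for Tmem176b (0.0159). The calls of Ms4a4a, Tmem176a and Tmem176b ended without Ccl2-/- replicate 3 (limma adjusted p of 0.0545 to 0.0679) and without Ccr2-/- replicate 1 or 2 (0.0759 to 0.110) and in the fit of the 6 arrays alone (0.0833 to 0.0882). That of Ms4a4a also ended without wild type replicate 3 (0.0510), with arrays centred (0.0743) and with the replicate block (0.0553), which ended that of Tmem176a too (0.0553). The call of Ms4a8a held under each alternative.

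The B cell gene Ms4a1 had log2 intensities of 8.49, 8.85 and 8.35 in Ccr2-/- monocytes, 7.36, 7.59 and 8.09 in Ccl2-/- monocytes, and 8.50, 9.02 and 7.95 in wild type monocytes, and its log2 fold change in Ccr2-/- against wild type was 0.07 (limma adjusted p = 0.955). For Ms4a2 of mast cells and basophils that log2 fold change was -0.12 (limma adjusted p = 0.931), and for Ms4a3, a gene of myeloid progenitors and basophils, 0.22 (0.814). In each of these 3 genes the Ccr2-/- and wild type arrays overlapped. In Ccl2-/- monocytes against wild type, Ms4a2 had a log2 fold change of -1.04 with no overlap (limma adjusted p = 0.243) and Ms4a1 one of -0.81 with overlap (limma adjusted p = 0.280). Beside them, 1 of 8 genes of a B cell list was called in Ccr2-/- monocytes (Cd22, higher), near the 13.3% of all genes called. None of 8 genes of a basophil and mast cell list was called, and none had an unadjusted p under 0.05.

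**Figure D5:**
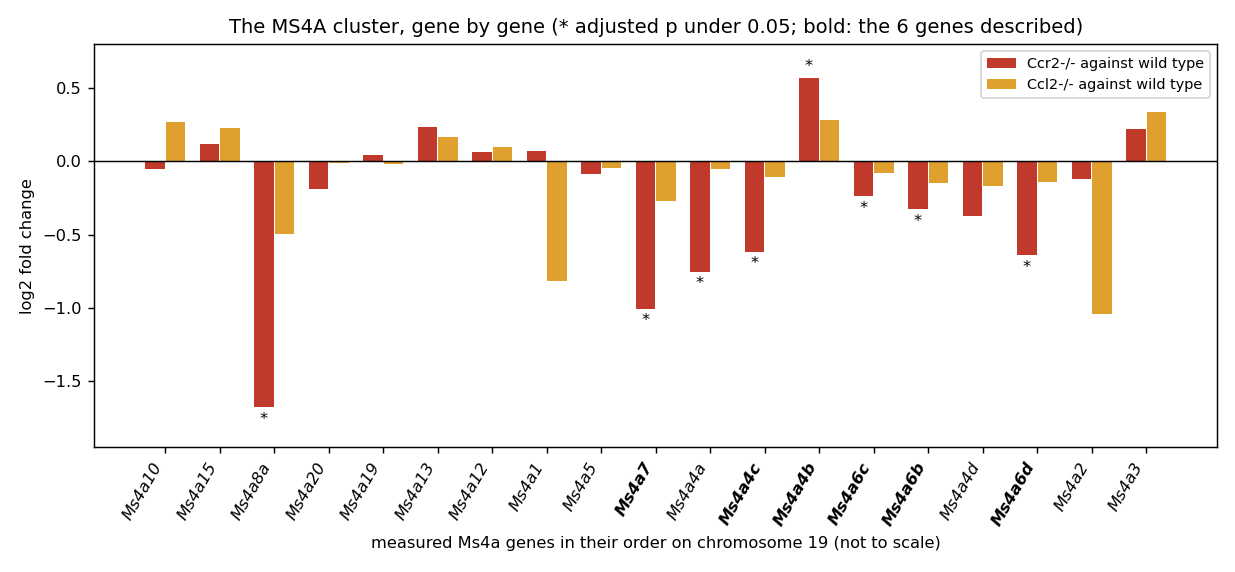
Log2 fold change (y axis) of each measured Ms4a gene in its order along chromosome 19 (x axis, not to scale), with 1 bar for Ccr2-/- against wild type and 1 for Ccl2-/- against wild type; a star marks an adjusted p under 0.05 and bold names the 6 genes. Ms4a4b is the only starred bar above 0, at 0.57, between Ms4a4c at -0.62 and Ms4a6c at -0.24.

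Of 4 genes for proteins reported to bind or act with MS4A proteins, 1 was higher in Ccr2-/- monocytes than in wild type, 2 were lower and 1 missed the threshold. Of all genes, 4.91% were called higher and 8.38% lower. Tnfrsf18, which encodes GITR, the reported partner of MS4A4B in mouse T cells, read 9.94, 9.91 and 9.86 in Ccr2-/- monocytes, 9.52, 9.67 and 9.33 in Ccl2-/- monocytes, and 9.14, 9.17 and 9.25 in wild type monocytes. The genotypes were separate and in the order seen for Ms4a4b, with a log2 fold change of 0.72 in Ccr2-/- monocytes against wild type (limma adjusted p = 0.00138) and 0.32 in Ccl2-/- monocytes (limma adjusted p = 0.194). Nlrp3, the inflammasome sensor, was lower in Ccr2-/- monocytes by a log2 fold change of -1.14 (limma adjusted p = 0.000579), the same direction as Ms4a6d. Vsig4 had one of 0.70, which missed the threshold (limma adjusted p = 0.0582). It was dim, with log2 intensities of 7.33, 7.24 and 7.87 in Ccr2-/- monocytes. Linear means were 182 in Ccr2-/-, 112 in Ccl2-/- and 110 in wild type monocytes, and how much of this was background is not known. Clec7a, which encodes the fungal receptor Dectin-1, a reported partner of human MS4A4A, was lower by a log2 fold change of -0.85 (limma adjusted p = 0.00126).

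Several of these genes are close duplicates, and the probe sequences were not used here, so cross-hybridization between their probes was not tested.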

How the data were processed

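RNA of CD11b-positive monocytes from the pooled blood of 5 mice was hybridized to Affymetrix Mouse Gene 1.0 ST arrays, 3 per genotype. Deposited were linear intensity values made by the authors in dChip, whose version, normalization and model are not given in the sources used here. The annotation gave 21789 of 35512 transcript clusters a single symbol, 1621 several and 12102 none. Symbols were updated through Entrez IDs with RefSeq (21698 clusters), and only clusters with a single symbol were kept. Where several clusters read 1 gene (999 genes), the brightest was used. Intensities below 1 (19 values) were raised to 1 before taking log2.

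With limma 3.58.1 (R 4.3.3), 1 model held the 3 genotypes and all 9 arrays, with p-values adjusted by Benjamini-Hochberg over 19938 genes in each comparison, and checked on simulated data. Arrays have no read depth, and their number limits the precision. The 6 genes and every list of other MS4A genes, partners and cell type markers, written from general knowledge, were chosen with earlier results of these data known. Named genes were the members, the listed MS4A genes and partners, and the 3 genes with the smallest root mean square difference from each member. Of the listed MS4A genes, Ms4a14 and Ms4a18 were not analysed here. Other names were chosen after their values were seen. Promoters were aligned and searched with Biopython 1.88. The alternatives were quantile normalization, centred arrays, a filter at a mean of 100, variances with an intensity trend, an offset of 50, averaged clusters, fits of 6 arrays, the replicate number as a block, the study's size limits and each array left out in turn.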

Additional observations from a re-analysis of the deposited data

How the results depend on the processing

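Every log2 fold change of the 6 genes kept its sign in each comparison under the 17 alternatives with a test. Against wild type in Ccr2-/- monocytes, 6 of the 6 were called as reported, 5 with quantile normalization, 4 with arrays centred, 5 with the replicate block, 5 by the size limits, and 4 to 6 when 1 array was left out. In Ccl2-/- monocytes against wild type the count was 0, and 1 by the size limits (Ms4a4b). For Ccr2-/- against Ccl2-/- it was 2, and 1 with quantile normalization, 0 with arrays centred, 5 with an intensity trend (Ms4a4b at a limma adjusted p of 0.0408, Ms4a6c at 0.0200 and Ms4a7 at 0.0462 in addition), 0 in the fit of 6 arrays, 0 with the replicate block, 4 by the size limits, and 0 to 2 when 1 array was left out. Why these counts moved was not tested.

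Over all genes, the 2648 calls of Ccr2-/- against wild type (978 higher, 1670 lower) became 1647 with arrays centred, 2695 with quantile normalization (1317 higher, 1378 lower), and 1663 to 3479 when 1 array was left out. The 32 calls of Ccl2-/- against wild type became 62 with quantile normalization, 366 with the intensity trend, 105 with the offset, 2 in the fit of 6 arrays, 7 with the block, and 6 to 476 when 1 array was left out, the highest without Ccl2-/- replicate 3. The 718 calls of Ccr2-/- against Ccl2-/- (146 higher, 572 lower) became 690 with quantile normalization (304 higher, 386 lower), 261 with arrays centred (187 higher, 74 lower), 1344 with the trend, 17 in the fit of 6 arrays, 167 with the block, and 22 to 1189 when 1 array was left out, the lowest without Ccr2-/- replicate 2.

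Replicate numbers did not pair the arrays throughout: the deviations of same-numbered arrays correlated at -0.18 to 0.56, and 3 of 9 arrays were closest to an array of their own number. The highest correlations, 0.34 and 0.56, were those of replicates 1 and 3 between Ccl2-/- and wild type, so a shared effect in some arrays remains possible. The block ended no call of the 6 genes other than Ms4a6c against wild type and Ms4a4c and Ms4a6d against Ccl2-/-. For the 12 NK cell genes, 11 to 12 were called in Ccr2-/- monocytes over the alternatives added after seeing the data, and 5 to 7 of the 7 Ly-6Chi monocyte genes, 5 to 10 of the 11 pan-monocyte genes and 0 to 1 of the 11 T cell genes.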
